A study of Mus musculus with 8 samples.

Results

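Keratins are the intermediate filament proteins of epithelial cells, and each filament pairs a type I with a type II keratin. In the mammary gland Krt5 (type II) and its partners Krt14 and Krt17 (type I) are known from the outer basal or myoepithelial layer, whereas Krt8 and Krt7 (type II) and Krt18 and Krt19 (type I) are known from the inner luminal layer. These 7 genes were chosen by name, and each was found under its own symbol among the 14883 genes of the deposited table. They were described in 114 cells, which are the wells of 768 that held at least 1500 transcripts and at least 500 genes.

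The cells came from ducts and terminal end buds (the tips by which ducts grow at puberty), which had been dissected from mammary glands 4 and 5 of mice of mixed strain aged 5 weeks, with no treatment named in the labels. Live cells were sorted into wells and processed by SORT-seq, an automated CEL-seq2 that reads transcripts at their 3′ ends and gives every molecule a tag. There were 8 libraries of 96 wells, numbered 1 to 4 on each of 2 plates. Libraries 2 and 4 of both plates (4 libraries, 68 cells) were set against libraries 1 and 3 of both plates (4 libraries, 46 cells), so that the groups did not rest on keratin levels. The split by library number was proposed with earlier results of these data in view, among them cell classes named in part from keratins, so the p-values of that comparison describe the spread between libraries and are not independent evidence. The labels do not say which library held ducts and which held end buds, how many animals were used, or which libraries came from separate animals, so that spread may be technical.

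Kept cells held a median of 13090 transcripts in libraries 2 and 4 and 8142 in libraries 1 and 3. The labels call the samples mammary epithelial cells. Marker lists without keratins gave a check of this. In libraries 2 and 4, 11 of 68 cells held more transcripts of a non-epithelial list (endothelial, fibroblast, Schwann, red blood cell and others) than of the 4 epithelial lists together, and in libraries 1 and 3 it was 3 of 46. All 14 of these cells were on plate 1, and 9 of them were among the 12 cells of plate 1 library 2. In the remaining cells a list of contractile basal markers (such as Acta2 and Myh11) was set against the other epithelial lists together. Those others hold luminal junction markers (such as Epcam and Cldn3), hormone-sensing markers (such as Prlr and Pgr) and secretory markers (such as Csn3 and Trf). The basal list held more transcripts in 54 of 57 cells of libraries 2 and 4 and in 0 of 43 cells of libraries 1 and 3. Levels below are transcripts per 10000 transcripts of the summed cells of a library, and intervals on shares are exact binomial 95% intervals that cover counting error only.

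The type II genes and Krt18 lie together on chromosome 15 of mm10 and the other type I genes on chromosome 11, all as protein-coding genes. Krt5 is at chr15:101707070-101712898, Krt7 at chr15:101411043-101430313, Krt8 at chr15:101996698-102004482 and Krt18 at chr15:102028180-102032027. Krt14 is at chr11:100203162-100207548, Krt17 at chr11:100256217-100261029 and Krt19 at chr11:100140810-100148665. Krt8 and Krt18, which form the common filament pair of simple epithelia, are neighbours separated by 23.7 kb.

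Krt14 and Krt17 are near copies over a coding stretch close to their 3′ ends, where CEL-seq2 reads fall. The stretch is shown because it limits how well the 2 genes can be told apart. The sequences below are from GENCODE transcripts, 5′ to 3′, and the capital marks the base that differs, A71G counted from 1 at the 5′ end of the stretch with the Krt14 base first. In Krt14 the stretch runs from base 461 to base 320 before the transcript end, and in Krt17 from base 454 to base 313.
Krt14: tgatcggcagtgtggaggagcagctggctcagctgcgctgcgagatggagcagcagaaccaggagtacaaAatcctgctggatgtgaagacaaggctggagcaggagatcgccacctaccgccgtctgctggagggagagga
Krt17: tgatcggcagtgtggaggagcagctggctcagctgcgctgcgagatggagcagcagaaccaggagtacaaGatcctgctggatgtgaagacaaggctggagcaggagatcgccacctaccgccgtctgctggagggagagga
Of these 142 bases, 141 are identical. Over the last 500 bases of either transcript, 43 of 451 words of 50 bases (9.53%) occur in another gene as well, namely in each other or in Krt16. Krt18 shares 5 of 451 words with Gm5200, and Krt5, Krt8, Krt19 and Krt7 share 0. How the authors assigned reads from such stretches is not given in the sources used here, so part of the counts of Krt14 and Krt17 is uncertain between them.

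RefSeq windows around the gene start were at hand for 5 of the 7 genes (build GRCm38.p6), and Krt17 and Krt19 had none. The 110 bases before the outermost annotated start are shown for Krt5, found in libraries 2 and 4, and for the neighbours Krt8 and Krt18, which parted in those libraries. They are 5′ to 3′ on the gene's strand, and capitals mark the motifs searched on both strands (the TATA box TATAAA, its variant ATAAAA, the GC box GGGCGG and the AP-2 pair GCCNNNGGC).
Krt5, chr15:101712906-101713015, minus strand: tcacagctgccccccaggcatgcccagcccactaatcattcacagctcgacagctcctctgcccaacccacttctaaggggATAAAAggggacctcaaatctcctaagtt
Krt8, chr15:102004483-102004592, minus strand: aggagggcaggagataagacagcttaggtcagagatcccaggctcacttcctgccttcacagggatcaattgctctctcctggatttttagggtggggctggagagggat
Krt18, chr15:102028070-102028179, plus strand: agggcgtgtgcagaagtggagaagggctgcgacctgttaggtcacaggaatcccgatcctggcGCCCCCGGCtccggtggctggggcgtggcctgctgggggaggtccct
Krt5 held ATAAAA 29 bases before its start, a letter match found in 7.68% of 32851 RefSeq windows of the same length. Krt18 held GCCNNNGGC, which reads like a pair of AP-2 half-sites, 47 bases before its outermost start, a match found in 7.37% of windows. The Krt8 window held none of the 4 motifs, and the TATA box and GC box letters stand in 5.94% and 25.7% of windows. The RefSeq start of Krt8 lies 140 bases and that of Krt18 36 bases inside the outermost start. The shares were counted over the 110 bases before the RefSeq start, so for Krt8 and Krt18 they belong to unlike windows. The bases just before the RefSeq start of Krt8 were not searched. A match is a description of letters and not of binding.

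The basal keratins were found in libraries 2 and 4 and were at or near 0 in libraries 1 and 3. Krt5, the type II keratin of basal cells, stood at 2.15 and 8.79 per 10000 in libraries 2 and 4 of plate 1 and at 5.45 and 5.12 in those of plate 2, against 0 in each of the 4 libraries numbered 1 and 3. Its mean was 5.38 ± 2.71 in libraries 2 and 4 and 0 in libraries 1 and 3 (SD, n = 4 libraries each). The groups did not overlap, and the lowest value was in plate 1 library 2, the library with 9 non-epithelial-led cells. With those cells set aside Krt5 averaged 5.98 ± 1.94 per 10000 in libraries 2 and 4. In all, 610 Krt5 transcripts were counted in libraries 2 and 4 and 0 of 651732 transcripts in libraries 1 and 3. Set against a floor of 3 transcripts over the group, Krt5 was at least 117-fold higher in libraries 2 and 4.

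Krt14, the type I partner of Krt5, stood at 0.57 and 2.41 per 10000 in libraries 2 and 4 of plate 1 and at 2.01 and 4.77 in those of plate 2, against 0 in each library numbered 1 or 3. That is 316 transcripts in libraries 2 and 4 and 0 in libraries 1 and 3, at least 60.7-fold higher in libraries 2 and 4 on the same floor. Krt17, a type I keratin also known from wounded skin, stood at 0.45 and 3.77 per 10000 in libraries 2 and 4 of plate 1 and at 2.52 and 5.54 in those of plate 2. In libraries 1 and 3 Krt17 had a single transcript, in plate 2 library 1, which made 0.0622 per 10000 there and 0 in the other 3. The Krt17 ratio of 386 transcripts to 1 was 223 after scaling to the totals (counting interval 39.7 to 8811). Krt14 and Krt17 share the stretch shown above, and both were absent or nearly so from the same libraries.

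The 4 luminal keratins ran the other way, with Krt8 the least far apart. Krt8, the type II keratin of simple epithelia, stood at 0.23 and 1.26 per 10000 in libraries 2 and 4 of plate 1 and at 2.01 and 2.67 in those of plate 2. In libraries 1 and 3 it stood at 8.80 and 16.7 on plate 1 and at 32.0 and 18.4 on plate 2. The mean was 1.54 ± 1.05 in libraries 2 and 4 and 19.0 ± 9.66 in libraries 1 and 3 (SD, n = 4 each), and the groups did not overlap. Pooled transcripts put Krt8 9.81-fold lower in libraries 2 and 4 (227 against 1283 transcripts, counting interval 8.51 to 11.3).

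Krt18, the type I partner of Krt8, stood at 0.11 and 0.19 per 10000 in libraries 2 and 4 of plate 1 and at 0.29 and 0.11 in those of plate 2, against 12.1 and 19.1 in libraries 1 and 3 of plate 1 and 23.6 and 19.2 in those of plate 2. It was 89.9-fold lower in libraries 2 and 4 (24 against 1244 transcripts, counting interval 60.2 to 141). The pooled distance between the groups was thus wider for Krt18 than for Krt8. The counting intervals did not meet, but they leave out the spread between cells and libraries. A single cell held 10 of the 24 Krt18 transcripts, and the difference between the genes was not tested.

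Krt19, a small type I keratin that lacks a tail domain, stood at 0 in both plate 1 libraries numbered 2 and 4 and at 0.07 and 0.09 per 10000 in those of plate 2. In libraries 1 and 3 it stood at 6.57 and 18.5 on plate 1 and at 20.2 and 26.9 on plate 2, so it was 314-fold lower in libraries 2 and 4 (7 against 1265 transcripts, counting interval 152 to 781). Krt7, a type II keratin of ducts and glands, had a single transcript in libraries 2 and 4 and 295 in libraries 1 and 3, where it stood at 0.46 and 4.46 per 10000 on plate 1 and at 8.90 and 3.22 on plate 2. Plate 1 library 1 was the lowest of libraries 1 and 3 for each of the 4 luminal keratins. It also held 2 of the non-epithelial-led cells, and without them its levels of Krt8, Krt18, Krt19 and Krt7 were 9.41, 12.97, 7.03 and 0.50 per 10000, still the lowest.

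**Figure D1:**
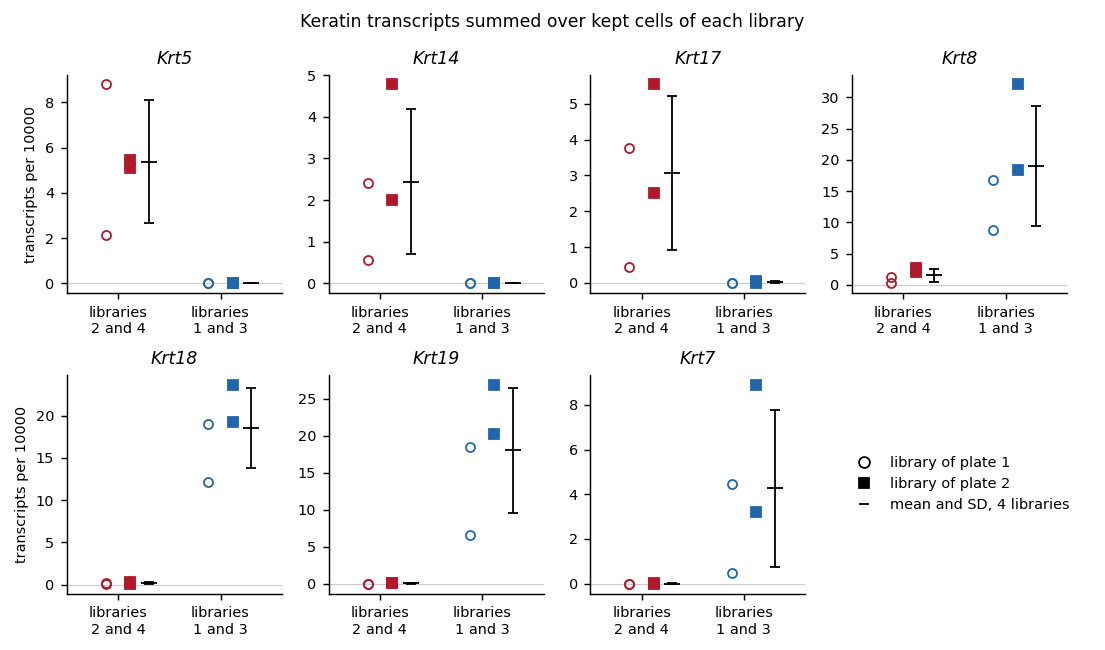
Transcripts of each keratin per 10000 transcripts (linear axes that differ between panels) in libraries 2 and 4 (left, red) and libraries 1 and 3 (right, blue). Open circles are plate 1, squares plate 2, and bars the mean and SD of 4 libraries. Krt5, Krt14 and Krt17 are at or near 0 in libraries 1 and 3, and Krt18, Krt19 and Krt7 at or near 0 in libraries 2 and 4, while Krt8 reaches 2.67 in libraries 2 and 4.

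A test across all genes was made with edgeR's quasi-likelihood test on the 8 library sums. Of 3528 genes tested, 7.45% were higher and 5.78% lower in libraries 2 and 4 (13.2% in either direction, Benjamini-Hochberg adjusted p under 0.05). Krt5, Krt8, Krt18 and Krt19 passed the filter on low counts and all 4 were called. Krt5, Krt18 and Krt19 passed it through the group where they were high, so their being tested is tied to the difference and nothing is read from the count. The count over all genes was 467, against 852 of 4358 tested (19.6%) without plate 1 library 2 and 724 of 4346 (16.7%) without plate 1 library 1, and with either of them left out all 7 keratins were tested and called. Krt14, Krt17 and Krt7 did not pass the filter and were not tested. In edgeR, Krt8 had a log2 change of -3.51 ± 0.52 (SE, adjusted p = 0.000444), Krt18 of -6.52 ± 0.38 (adjusted p = 1.60e-06) and Krt19 of -8.12 ± 0.59 (adjusted p = 6.33e-06), each lower in 4 of 4 libraries. For Krt5 the adjusted p was 5.85e-05, and its fitted change is not given because libraries 1 and 3 held no transcript. Within plate 1 the 4 keratins tested were called, beside 3.86% of 2334 genes (Krt8 -4.09 with adjusted p = 0.0429 in edgeR). Within plate 2 all 7 were tested and called, beside 17.5% of 5620 genes (Krt8 -3.39 with adjusted p = 0.000559 in edgeR). In these fits too, and with a library left out, keratins at or near 0 in a group passed the filter through the other group. Nothing is read from their counts. A term for the difference between plates passed for 0 of 5166 genes in edgeR, with 257 at an unadjusted p under 0.05, and no keratin passed.

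Shares of cells followed the levels. Krt5 was found in 53 of 68 cells of libraries 2 and 4 (77.9%, interval 66.2 to 87.1), Krt17 in 47 (69.1%, 56.7 to 79.8) and Krt14 in 37 (54.4%, 41.9 to 66.6). In libraries 1 and 3, Krt5 and Krt14 were found in 0 of 46 cells and Krt17 in 1. A count of 0 was given a limit of 3 counts, which allows a share of up to 6.52% of cells with a transcript and does not limit the cells that express the gene. Krt18 was found in 10 of 68 cells of libraries 2 and 4 (14.7%, 7.28 to 25.4) and in 43 of 46 cells of libraries 1 and 3 (93.5%, 82.1 to 98.6). Krt19 was found in 5 of 68 and 35 of 46 cells, and Krt7 in 1 of 68 and 26 of 46 cells, in libraries 2 and 4 and in libraries 1 and 3.

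Krt8 stood apart from these in its share. It was found in 44 of 68 cells of libraries 2 and 4 (64.7%, 52.2 to 75.9) and in 38 of 46 cells of libraries 1 and 3 (82.6%, 68.6 to 92.2). Thinned to 1500 transcripts per cell, the shares were 13 of 68 (19.1%) in libraries 2 and 4 and 33 of 46 (71.7%) in libraries 1 and 3. Thinned shares of Krt5, Krt14 and Krt17 in libraries 2 and 4 were 52.9%, 26.5% and 20.6%. Those of Krt18, Krt19 and Krt7 in libraries 1 and 3 were 80.4%, 52.2% and 23.9%.

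In single cells of libraries 2 and 4 the basal keratins varied widely. Krt5 ran in plate 2 library 2 from 0 over a median of 4.02 to 45.5 per 10000, and in plate 2 library 4 from 0 over a median of 5.11 to 10.8. Krt14 ran from 0 over a median of 0.41 to 35.2 per 10000 in plate 2 library 2 and from 0 over 2.29 to 17.1 in library 4. At least 1 basal keratin was found in 57 of 68 cells, and in 54 of 57 without the non-epithelial-led cells. All 3 were found in 30 cells. Krt5 without Krt14 was seen in 18 cells and Krt14 without Krt5 in 2, those 2 with a median of 3534 transcripts. Per Krt5 transcript there were 0.26 and 0.27 Krt14 transcripts in libraries 2 and 4 of plate 1 and 0.37 and 0.93 in those of plate 2, so plate 2 library 4 was the highest.

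Among cells of libraries 1 and 3, each of the 43 cells not led by a non-epithelial list held a luminal keratin, and 24 held all 4. The single Krt17 transcript lay in a cell of 2404 transcripts that also held 1 Krt18 transcript. Of the 43 cells, 5 held no Krt8, and each of these 5 held Krt18. Those 5 cells had 2404 to 6198 transcripts.

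The Krt8 transcripts in libraries 2 and 4 came mostly from cells that also held basal keratins. Of the 44 cells with Krt8, 43 also held Krt5, Krt14 or Krt17 (97.7%, 88.0 to 99.9). The exception was a cell of 7653 transcripts in plate 2 library 2 with 1 Krt8 transcript and none of the other 6. Among all 57 cells not led by a non-epithelial list, 54 held a basal keratin (94.7%), so the share was not particular to cells with Krt8. By library, Krt8 was found in 1 of 12 and 4 of 7 cells of libraries 2 and 4 of plate 1 and in 25 of 31 and 14 of 18 cells of those of plate 2. With non-epithelial-led cells set aside it was 44 of 57 cells (77.2%, 64.2 to 87.3).

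Krt18 was rare beside Krt8 in these cells. Of the 44 cells with Krt8 in libraries 2 and 4, 10 held Krt18 (22.7%, 11.5 to 37.8), against 38 of 38 in libraries 1 and 3 (100%, 90.75 to 100). Per Krt8 transcript there were 0.50 and 0.15 Krt18 transcripts in libraries 2 and 4 of plate 1 and 0.14 and 0.04 in those of plate 2, against 1.38 and 1.14 in libraries 1 and 3 of plate 1 and 0.74 and 1.05 in those of plate 2. The value of 0.50 rests on 1 Krt18 and 2 Krt8 transcripts. The ratio was thus lower in each library numbered 2 or 4 than in each numbered 1 or 3. In libraries 2 and 4, 0 of 68 cells had transcripts of all 4 luminal keratins, which on the limit of 3 counts allows a share of up to 4.41%.

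**Figure D2:**
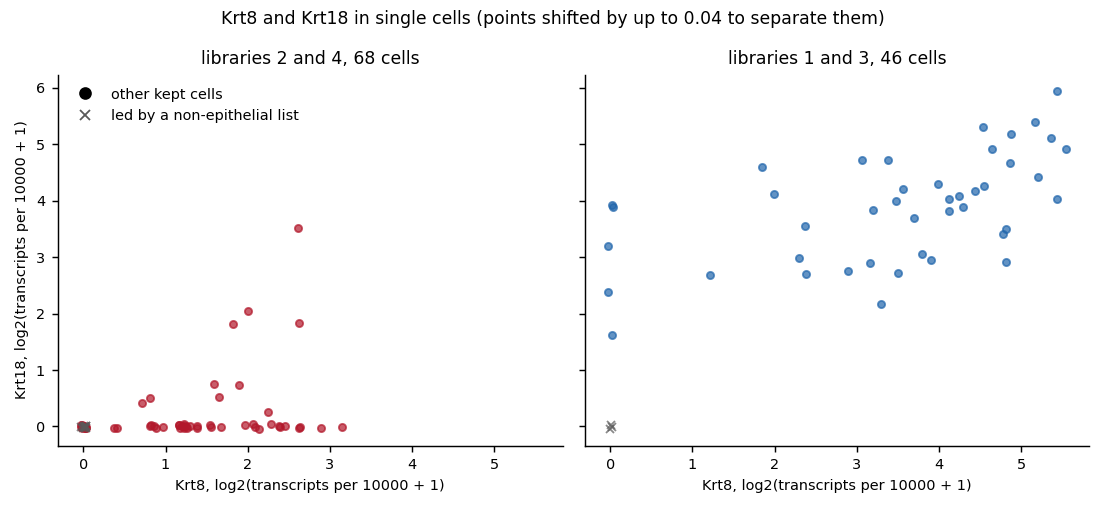
Krt18 (vertical) against Krt8 (horizontal) per cell, both as log2(transcripts per 10000 + 1), in 68 cells of libraries 2 and 4 (left) and 46 cells of libraries 1 and 3 (right). Crosses are cells led by a non-epithelial list. Of the cells with Krt8, 10 of 44 on the left and 38 of 38 on the right also hold Krt18.

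The 5 cells of libraries 2 and 4 with at least 10 Krt8 transcripts were all on plate 2. The cell with the most Krt8 held 21 Krt8, 10 Krt18, 3 Krt5, 0 Krt14 and 6 Krt17 transcripts among 39827. The next held 20 Krt8 and 1 Krt18 with 12 Krt5, 1 Krt14 and 19 Krt17 among 52233. The cell with 10 Krt8 transcripts held 0 Krt18, 14 Krt5, 29 Krt14 and 48 Krt17. The first cell thus held 10 of the 24 Krt18 transcripts of libraries 2 and 4.

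The share of cells with Krt8 moved with depth in libraries 2 and 4. Without non-epithelial-led cells it was 3 of 11 cells below 5000 transcripts, 6 of 10 from 5000 to below 10000, 10 of 10 from 10000 to below 20000 and 25 of 26 from 20000 up. The level over the same 4 ranges was 1.58, 1.34, 2.70 and 2.09 per 10000. The share was higher in the second and the third range than in the one before each, while the deepest range lay between the second and the third in level. The shallow ranges rest on 6 and 10 Krt8 transcripts.

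**Figure D3:**
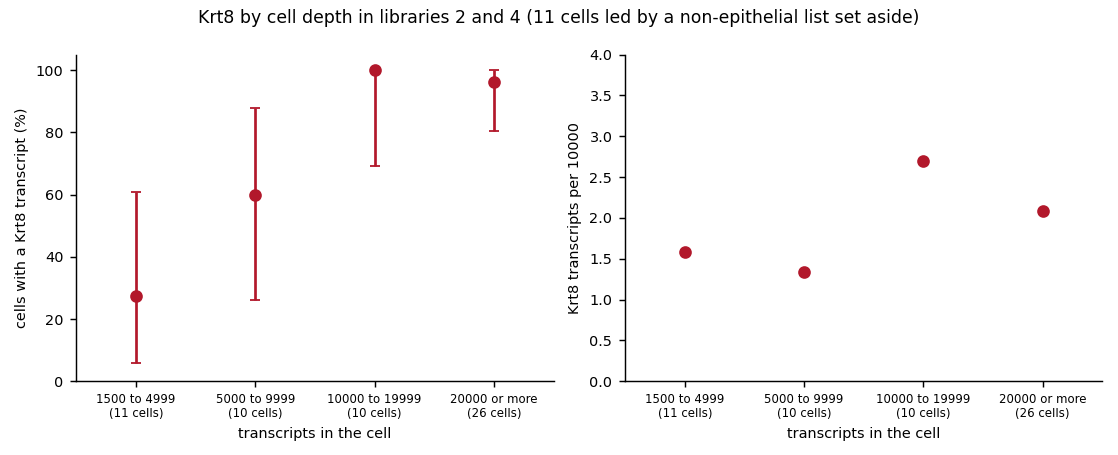
Share of cells with a Krt8 transcript (left, percent, with exact binomial 95% intervals) and Krt8 transcripts per 10000 (right) by the number of transcripts in the cell, for 57 cells of libraries 2 and 4 not led by a non-epithelial list. The share is 3 of 11 cells in the shallowest range and 25 of 26 in the deepest, and the level lies between 1.34 and 2.70.

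Free RNA and reads passed between wells can also give single transcripts, so the same genes were counted in non-epithelial-led cells and in near-empty wells. The 11 non-epithelial-led cells of libraries 2 and 4 held 0 Krt8 in 53415 transcripts, at a median of 3600 per cell, and 5 Krt5 transcripts. After thinning to 1500 transcripts Krt8 was found in 0 of these 11 cells and in 13 of the other 57. All 11 were on plate 1. The thinned cells with Krt8 numbered 0 and 2 in libraries 2 and 4 of plate 1 and 6 and 5 in those of plate 2. The 11 cells thus give no measure of free RNA on plate 2. Wells under 500 transcripts in libraries 2 and 4 held 4 Krt8 and 5 Krt18 transcripts among 43161, which is 0.93 Krt8 per 10000 against 2.11 in the 57 cells. Those wells also carried basal transcripts, with Krt5 at 5.10 and Acta2 at 119.6 per 10000, against 5.62 and 79.7 in the 57 cells. Krt14 and Krt17 were lower there than in the 57 cells, at 1.85 against 2.92 and at 1.39 against 3.58. Krt18 per Krt8 was 1.25 in those wells, on few transcripts, and 0.11 in the 57 cells. The matching wells of libraries 1 and 3 held 42 Krt8 and 31 Krt18 transcripts, a ratio of 0.74, against 0.97 in the 43 cells.

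Well numbers are shared between the libraries of a plate. Of 87 well numbers that held a kept cell, 25 did so in more than 1 library of the same plate. Among the 44 cells with Krt8 in libraries 2 and 4, 12 had a kept cell with Krt8 at the same well number in library 1 or 3 of the plate, and 32 had no kept cell there. Among the 13 cells without Krt8 it was 0. Krt8 stood at 3.48 per 10000 in those 12 cells and at 1.91 in the other 32, and Krt18 per Krt8 was 0.10 and 0.11. Krt18 was found in 5 of the 12 cells and in 5 of the 32, with 8 and 16 transcripts. Of those 16 transcripts, 10 lay in the cell with the most Krt8. Krt19 had 4 transcripts among 232781 in the 12 cells and 3 among 765669 in the 32, and Krt7 had 0 and 1. Kept cells at the same number in the other library of libraries 2 and 4 were not counted here, and the part of well sharing in the Krt8 level was not tested.

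No basal keratin passed the test between cells of libraries 2 and 4 with and without Krt8. The comparison was made in edgeR on sums per library and class, with the library as block, in the 3 libraries with at least 3 cells of both classes. Krt5 stood at 8.40, 5.17 and 5.30 per 10000 in cells with Krt8 of plate 1 library 4, plate 2 library 2 and plate 2 library 4, against 11.8, 8.75 and 1.25 in cells without. Its log2 change was -0.01 ± 0.45 (SE, adjusted p = 0.995), and the classes overlapped. Left without plate 1 library 4 or plate 2 library 2 it was 0.15 or 0.40. Krt14 had a log2 change of 0.45 ± 0.57 (adjusted p = 0.882; -0.33 without plate 2 library 2) and Krt17 of 0.93 ± 0.53 (adjusted p = 0.708), also in edgeR. Krt17 stood at 4.04, 2.57 and 5.69 per 10000 in cells with Krt8, against 1.68, 1.97 and 2.51 in cells without, higher in 3 of 3 libraries.

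Of 1752 genes tested between these classes, 0.228% were called in either direction, which is 4 genes, and 124 had an unadjusted p under 0.05. The 4 were named after their values were seen. Ier3, an immediate early response gene, was higher in cells with Krt8, at 5.62 ± 1.84 against 0.85 ± 0.96 per 10000. Those levels rest on 618 and 6 transcripts (log2 change 2.96 ± 0.64, adjusted p = 0.0173 in edgeR). Lower were Igfbp5, an IGF-binding protein, at 16.9 ± 8.68 against 46.1 ± 3.61, the nuclear RNA Malat1 at 32.5 ± 5.73 against 96.2 ± 27.4, and Gm20594 (SD, n = 3 libraries each). Cells without Krt8 were shallower in each library, with medians of 17470, 21740 and 20140 transcripts in cells with Krt8 and of 3283, 4588 and 3126 in cells without, and the part of depth in these 4 calls was not tested. In plate 1 library 4, 2 of the 3 cells without Krt8 were led by a non-epithelial list. With the classes drawn after thinning to 1500 transcripts, 0 genes were called. Without plate 2 library 2 it was 0 as well, and without plate 2 library 4 it was 1.

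Within libraries 1 and 3, Krt19, Krt7 and Krt8 were higher in one of the luminal marker classes, and Krt18 did not pass the test. None of the 4 was called without plate 2 library 1 or in cells of at least 3000 transcripts. The limit of 3000 also took plate 2 library 1 out of the fit, since fewer than 3 of its secretory-marked cells reached it. These settings are thus not separate checks. A cell was called hormone-sensing-marked (15 cells) or secretory-marked (29 cells) by whether markers such as Prlr and Pgr or markers such as Csn3 and Trf held more transcripts, with no keratin among them, and 2 cells met neither. The names refer to luminal cells that respond to estrogen and to luminal cells of the milk-making lineage. Hormone-sensing-marked cells were the higher for each of the 4 luminal keratins in each of the 3 libraries with at least 3 cells of both classes. The share of all genes with that order was not counted, and the 4 ran together across cells, so nothing is read from this count.

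Krt19 stood at 28.3, 22.1 and 55.5 per 10000 in hormone-sensing-marked cells of plate 1 library 3, plate 2 library 1 and plate 2 library 3, against 6.49, 0.81 and 7.19 in secretory-marked cells. It rose by a log2 change of 2.67 ± 0.44 (SE, adjusted p = 8.05e-08 in edgeR with the library as block). Krt7 stood at 7.18, 9.80 and 6.76 per 10000 in hormone-sensing-marked cells, against 1.06, 0 and 0.79 in secretory-marked cells, with a log2 change of 3.02 ± 0.64 (adjusted p = 7.05e-05). For both genes the classes did not overlap.

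Krt8 stood at 25.8, 33.9 and 27.7 per 10000 in hormone-sensing-marked cells, against 5.57, 16.2 and 12.0 in secretory-marked cells. It rose by a log2 change of 1.38 ± 0.40 (adjusted p = 0.00768 in edgeR). Krt18 stood at 26.5, 24.7 and 29.7 per 10000 in hormone-sensing-marked cells, against 10.5, 14.5 and 12.0 in secretory-marked cells, and its log2 change of 1.03 ± 0.40 did not pass (adjusted p = 0.0714). Of 2438 genes tested, 4.88% were higher and 6.4% lower in hormone-sensing-marked cells (11.3% in either direction), and 3 of the 4 luminal keratins were called. Krt7 passed the filter on low counts through the hormone-sensing-marked sums, where it was high, so nothing is read from that count. The difference in change between Krt19 or Krt7 and Krt18 was not itself tested.

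**Figure D4:**
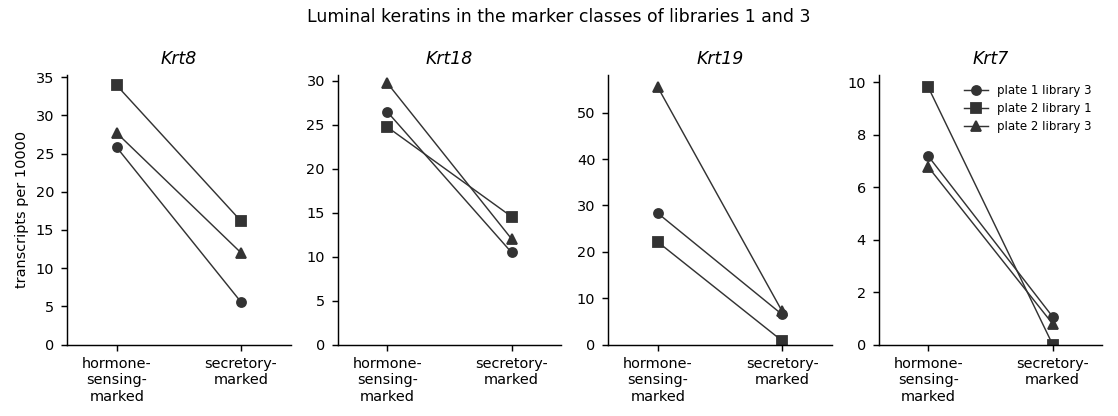
Transcripts of Krt8, Krt18, Krt19 and Krt7 per 10000 (linear axes from 0) in hormone-sensing-marked cells (left) and secretory-marked cells (right), with a line for each of the 3 libraries. Each line falls to the right, and Krt7 is at 0 in the secretory-marked cells of plate 2 library 1.

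These calls rest on few cells. The hormone-sensing-marked sums came from 3, 7 and 3 cells and the secretory-marked sums from 9, 3 and 9 cells of plate 1 library 3, plate 2 library 1 and plate 2 library 3. Median depth was 15540 transcripts in hormone-sensing-marked and 6808 in secretory-marked cells, and the part of depth was not tested. Without plate 2 library 1, whose secretory-marked sum held 12378 transcripts, none of the 3 was called, with log2 changes of 2.33 for Krt19, 2.70 for Krt7 and 1.48 for Krt8 (adjusted p = 0.0642, 0.0681 and 0.0938 in edgeR). The count over all genes was 275, against 3 without that library, 100 without plate 1 library 3 and 122 without plate 2 library 3. Krt8 was not called without plate 1 library 3 either (1.13, adjusted p = 0.361). After thinning to 1500 transcripts, Krt7 was found in 9 of 15 hormone-sensing-marked and 2 of 29 secretory-marked cells, Krt19 in 11 and 13, Krt8 in 14 and 19, and Krt18 in 14 and 22. Plate 1 library 1, which had 2 hormone-sensing-marked cells and was outside the fit, held Krt8, Krt18, Krt19 and Krt7 at 10.5, 8.36, 3.14 and 0 per 10000 in those cells, against 8.64, 12.5, 6.91 and 0.51 in its 8 secretory-marked cells. There the order was the other way for Krt18, Krt19 and Krt7. In each of these classes 1 cell was led by a non-epithelial list. Without those cells the hormone-sensing-marked cell left had 16.8, 13.4, 5.03 and 0 per 10000, against 8.95, 12.9, 7.16 and 0.53 in 7 secretory-marked cells, so that the order of Krt18 turned.

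In the 3 libraries, the order of Krt8 levels was hormone-sensing-marked cells, secretory-marked cells, then the cells of libraries 2 and 4, with ranges of 25.8 to 33.9, 5.57 to 16.2 and 0.23 to 2.67 per 10000 that did not overlap. Krt18 had the same order, with ranges of 24.7 to 29.7, 10.5 to 14.5 and 0.11 to 0.29. Krt7 overlapped between its lower neighbours, at 0 to 1.06 in secretory-marked cells and 0 to 0.02 in libraries 2 and 4.

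Well position went with the basal keratins on plate 2. The border after well 24 was chosen after the values were seen, so this is a description with no test. In plate 2 library 2, Krt14 stood at 4.40 per 10000 in 18 cells of wells above 24 and at 0.27 in 13 cells of wells 1 to 24. In plate 2 library 4 it stood at 8.44 in 13 cells above well 24 and at 0.25 in 5 cells up to it. Krt5 stood at 8.31 above and 3.36 up to well 24 in library 2, and at 6.89 and 2.92 in library 4. Krt17 stood at 3.11 and 2.10 in library 2 and at 8.38 and 2.03 in library 4, again above well 24 first.

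Krt8 lacked such a step, at 2.38 above and 1.74 up to well 24 in library 2 and at 2.42 and 2.99 in library 4. Acta2, the smooth muscle actin of myoepithelial cells, moved with Krt14, at 124 above and 56.9 per 10000 up to well 24 in library 2 and at 119 and 35.1 in library 4. Depth moved too, with medians of 10120 transcripts above and 22010 up to well 24 in library 2 and of 14530 and 33740 in library 4. The labels do not say what the well numbers stand for, and the part of sorting order, cell kind or depth was not tested.

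**Figure D5:**
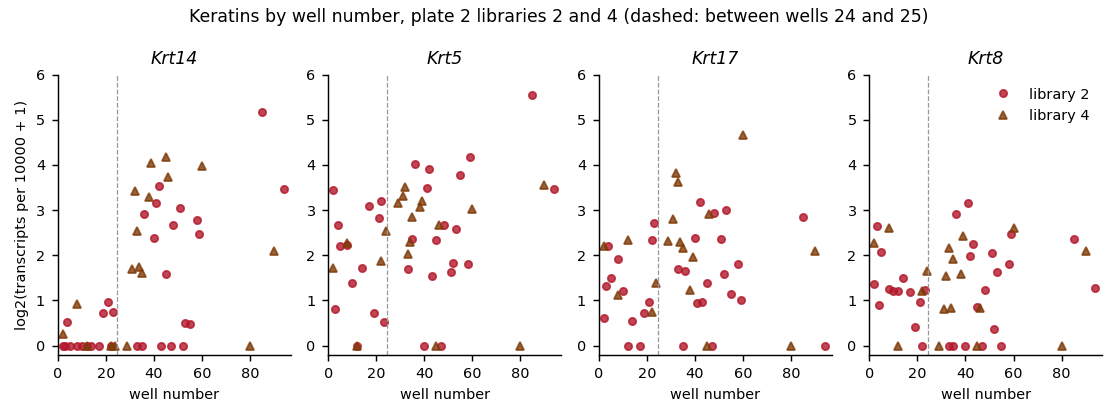
Krt14, Krt5, Krt17 and Krt8 per cell, as log2(transcripts per 10000 + 1), against well number in plate 2 libraries 2 (circles) and 4 (triangles). Krt14 lies at or below 1 in each cell of wells 1 to 24, whereas Krt8 shows no such step.

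Some genes ran with the keratins across single cells. Over the 68 cells of libraries 2 and 4, the genes nearest to Krt14 among 2930 found in at least 50% of cells were Igfbp3 (Pearson r 0.75 on log2 of transcripts per 10000 plus 1), an IGF-binding protein, Cnn1 (0.75), calponin of smooth muscle, Plxdc2 (0.75), Myh11 (0.73), smooth muscle myosin, and Oxtr (0.72), the oxytocin receptor. With Krt14 itself, Krt5 had r = 0.56, Krt8 0.42 and Krt17 0.39. Over the 46 cells of libraries 1 and 3, the nearest to Krt8 among 1943 genes were S100a11 (0.77), Tgm2 (0.70), a transglutaminase, S100a6 (0.68), Mlph (0.60) and Ppp2r5c (0.58). Krt19 had r = 0.68 with Krt8, Krt18 0.68 and Krt7 0.67. The 68 cells include the 11 led by a non-epithelial list. Those held Krt14 at 0.19 and Acta2 at 2.43 per 10000, against 2.92 and 79.7 in the other 57. The 46 cells include 3 such cells, with 0 Krt8 transcripts. Cnn1, Myh11 and Oxtr are themselves on the basal marker list. The cells also share libraries and differ in depth, so these values are descriptions, and the part of the cell mix was not tested.

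Other keratins were few. Of 46 listed, 14 were in the table and 2 were tested between libraries 2 and 4 and libraries 1 and 3. Krt23 and Krt15, the genes tested, passed the filter on low counts through libraries 2 and 4, so nothing is read from their being tested. Krt23, a type I keratin, was higher in libraries 2 and 4, at 1.25 and 1.35 per 10000 in those of plate 1 and 1.41 and 1.11 in those of plate 2, against 0.05 to 0.16 in libraries 1 and 3 (log2 change 3.73 ± 0.44, adjusted p = 8.77e-05 in edgeR). Krt15, a basal type I keratin of skin, averaged 1.04 ± 0.27 against 0.22 ± 0.28 per 10000 (SD, n = 4 each) and did not pass (log2 change 2.16 ± 0.66, adjusted p = 0.05002). Krt6a had 0 transcripts in libraries 2 and 4 and 16 in libraries 1 and 3, of which 11 were in plate 1 library 3, and was not tested.

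Of the desmosome and plakin genes, which anchor keratin filaments to junctions and to other cytoskeletal fibres, 3 of 9 tested rose and 0 fell, where 7.45% of all genes tested rose and 5.78% fell. Their median log2 change was 0.75, against 0.01 over all genes tested. Perp and Pkp4 passed the filter on low counts through libraries 2 and 4, where they were high, so nothing is read from the count or the median. Perp, a tetraspan desmosome protein, was at 4.77 ± 2.37 in libraries 2 and 4 and 0.27 ± 0.19 per 10000 in libraries 1 and 3 (log2 change 4.16 ± 0.63). Dsp, desmoplakin, was at 3.14 ± 1.49 and 1.03 ± 0.15 (1.61 ± 0.36), and Pkp4, a plakophilin, at 1.35 ± 0.27 and 0.36 ± 0.10 (1.92 ± 0.36). The adjusted p in edgeR was 0.000555 for Perp, 0.00876 for Dsp and 0.00303 for Pkp4. The plakin Dst had a log2 change of 1.18 ± 0.40 and Macf1 of 0.48 ± 0.41, and neither passed.

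Among other intermediate filaments 1 of 2 tested rose. Vim, vimentin of mesenchymal and basal cells, was at 15.0 and 3.96 per 10000 in libraries 2 and 4 of plate 1 and 4.16 and 4.24 in those of plate 2, against 0 to 0.83 in libraries 1 and 3 (log2 change 5.06 ± 0.88, adjusted p = 0.00162 in edgeR). The value of 15.0 belongs to plate 1 library 2, with its non-epithelial-led cells. Vim also passed the filter on low counts through libraries 2 and 4, so nothing is read from the count of 1 of 2. The lamin Lmna had -0.46 ± 0.35 and did not pass. Of 9 tested genes that bind or turn over keratins, 0 passed, where 13.2% of all genes did, and 2 rose without plate 1 library 2 (Sfn and Trim29, named after their calls were seen). Among them the chaperones Hspa8 and Hsp90aa1 had log2 changes of 0.47 ± 0.23 and 0.43 ± 0.25.

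Of 11 tested transcription factors known to act on keratin or epithelial genes, 2 rose and 3 fell, where 7.45% of all genes rose and 5.78% fell, and their median was -0.28. Trp63 passed the filter on low counts through libraries 2 and 4 and Elf3 through libraries 1 and 3, so nothing is read from these counts. Trp63, the basal factor p63 and itself a marker on the basal list, had 247 transcripts in libraries 2 and 4 and 0 in libraries 1 and 3. Tfap2c, the AP-2 gamma factor, was at 3.42 ± 1.84 and 0.87 ± 0.38 per 10000 (log2 change 2.01 ± 0.47, adjusted p = 0.0110 in edgeR). Elf3 and Gata3, factors of luminal cells, were lower in libraries 2 and 4, at 0.04 ± 0.05 against 1.48 ± 0.49 and at 2.02 ± 1.34 against 10.4 ± 2.56 per 10000. Sox9, named after its value was seen, was the other one lower (log2 change -1.62 ± 0.41), and it was not called without plate 2 library 4. Without plate 1 library 2, without plate 1 library 4, without plate 2 library 2 or without plate 2 library 1, 5 of these factors fell. Klf4 had 1.24 ± 0.44 and Sox10 had 0.35 ± 0.47, and neither passed.

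The same lists between the luminal classes gave calls among the transcription factors alone. Of 9 tested, 4 were lower in hormone-sensing-marked cells and 0 higher, where 6.4% of all genes were lower and 4.88% higher. Their median was -1.27, against 0.12 over all genes tested. Tfap2c and Sox10 passed the filter on low counts through the secretory-marked sums, where they were high, so nothing is read from the count or the median. None of the 4 was called without plate 2 library 1 or in cells of at least 3000 transcripts, a limit that also took that library out of the fit. Sox10 alone was called without plate 1 library 3. Tfap2c was at 0.02 ± 0.04 in hormone-sensing-marked and 2.20 ± 0.25 per 10000 in secretory-marked cells (1 against 42 transcripts), and Sox10 at 0.30 ± 0.33 and 6.03 ± 3.18 (log2 change -4.41 ± 0.70, adjusted p = 3.18e-08 in edgeR). Ehf, an ETS factor of epithelia, was at 0.80 ± 0.97 and 3.93 ± 0.19, and Hes1, a Notch target, at 2.35 ± 1.64 and 8.48 ± 6.69 (SD, n = 3 libraries each). Gata3 (1.00 ± 0.46) and Sox9 (0.17 ± 0.52) did not pass. Of 6 desmosome and plakin, 1 other filament and 8 keratin handling genes tested there, 0 passed. Between cells of libraries 2 and 4 with and without Krt8, 0 of the 29 tested genes of these lists passed. Over all genes tested there the share was 0.228%, so nothing is read from that 0.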

How the data were processed

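Single cells of the mammary gland of mice aged 5 weeks were sorted into plates and processed by SORT-seq with 75 bp paired reads, per the labels' protocols. The submitters' processing notes list BWA 0.6.2-r126 as a tool and mm10 as the build, without their settings. The values deposited by the authors are expected counts, estimates of the transcript molecules of a gene in a well. Of 518737 values above 0, 518732 fell, within 1e-06, on the steps of a correction for molecules that share 1 of 256 tags of 4 bases, as read from the values. Any further filter by the authors is not given in the sources used. No well was left out of the table's 768, and 0 gene lines lacked a name.

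Expected counts were rounded, and spike-ins were kept out of totals. Wells with at least 1500 transcripts and 500 genes were kept as cells (114 of the 121 that reached 1500). No doublet caller was run, since each well was to receive 1 sorted cell, and cells with 2 lineages' markers were left in. Library totals over kept cells ran from 88301 to 586868 transcripts. Transcripts were summed per library, or per library and class with at least 3 cells of both classes, and tested with edgeR 4.0.16 in R 4.3.3 (TMM, filterByExpr, quasi-likelihood, Benjamini-Hochberg adjustment over all genes tested, call under 0.05). The library was the block in comparisons within libraries. DESeq2 1.42.0 was an alternative. Standard errors were approximated by dividing each log2 change by the square root of its F value. Genes that chose a class (Krt8, or the marker lists) were taken out before adjustment. A marker class needed at least 3 transcripts of its list, more than of the other luminal list and more than of the basal list. Thinning drew 1500 transcripts per cell with a fixed seed. Fold bounds set a group without transcripts at 3 over the group. The edgeR steps were tested on simulated data.

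The 7 keratins, the marker lists and the lists of other keratins, desmosome, filament, handling and regulator genes were chosen with earlier results of these data known. Of each list, up to 4 called genes with the largest change and 2 others with the highest level were named, with the 5 genes nearest to Krt14 and to Krt8, leaving out ribosomal protein genes. Gene positions are from GENCODE vM21 and upstream sequences from RefSeq. The alternatives were other scaling, filters, depth limits, thinning, plates, blocks and leaving out each library.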

Additional observations from a re-analysis of the deposited data

Results flagged for a closer look

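Dixon's test was applied to each keratin in each group of 4 libraries, 14 groups in all, and chance flags about 1 in 20 groups. It marked 2 values, each a single transcript beside 3 libraries at 0. With 3 libraries at 0 any transcript in the other library is marked, so that rate does not hold for them. Krt7 in plate 2 library 2 stood at 0.0170 per 10000 transcripts, while the other libraries numbered 2 and 4 held none. Krt17 in plate 2 library 1 stood at 0.0622 per 10000, while the other libraries numbered 1 and 3 held none.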

How the results depend on the processing

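Between libraries 2 and 4 and libraries 1 and 3, Krt8, Krt18, Krt19 and Krt5 kept their direction and their call wherever they were tested. The log2 changes ran from -4.09 to -3.02 for Krt8, from -7.03 to -5.15 for Krt18 and from -10.28 to -7.41 for Krt19. The number of keratins called was 4 of 4 tested and became 7 of 7 with no filter on low counts, with plate as block and on plate 2 alone, and 2 of 2 after thinning, because other numbers of genes were tested. Leaving out 1 library at a time it was 5 to 7, and nothing is read from these counts. Genes called in all were 467, and 1299 with no filter, 37 after thinning, 90 on plate 1 alone and 981 on plate 2 alone, and 399 to 852 leaving out each library.

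Between cells with and without Krt8, 4 genes were called, and 2 by DESeq2, 2 with no filter, 19 from wells of at least 500 transcripts, 1 with no replicate block for the library, 0 with Krt8 called after thinning and 0 to 6 leaving out each library. No keratin was called under any setting that was run. Krt5 changed sign with no filter (0.53), without non-epithelial-led cells (0.15), with Krt8 called after thinning (0.53) and with at least 2 Krt8 transcripts (0.30), and ran from -0.62 to 0.40 leaving out each library, where Krt14 ran from -0.33 to 1.52.

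Between the luminal classes, 275 genes and 3 keratins were called. At 3000 transcripts or more it was 3 genes and 0 keratins, and 37 genes after thinning. Leaving out each library gave 3 to 122 genes and 0 to 3 keratins. The replicate block changed the call of Krt18, which passed with no replicate block (4 keratins called) and with RLE scaling. The share of cells with Krt8 in libraries 2 and 4 was 64.7%, and 19.1% after thinning and 51.5% with at least 2 transcripts. Causes were not tested where none is given. Library numbers were not used as pairs across plates. Too few libraries met the minimum for the Krt8 classes at 3000 transcripts and for either pair of classes at 5 cells, so these were not run. Depth limits the shares of cells, and thinning lowered that of each keratin in the group where it was the higher.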
